A study of Ovis aries with 3 samples.

Results

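HSPA6 keratinocytes of the hay library were cells of Hu sheep rumen epithelium that carried at least 2 UMIs (unique molecular identifiers, each marking 1 captured transcript) of HSPA6, a strictly heat-inducible member of the HSP70 chaperone family in humans. They were chosen among barcodes that showed 500 genes or more and kept UMIs of the 13 mitochondrially encoded genes below 20%. They also had a summed count of TOP2A, CENPF and NUSAP1, genes of dividing cells, of at most 1, and no UMI of the immune genes PTPRC and C1QA. The limits gave 420 of the 7031 kept cells of the hay library, out of 15772 kept cells and 25789 barcodes in all. They were set against 4721 cells of the same library that met every other limit and had an HSPA6 count of 0.

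The study profiled rumen epithelium of lambs at 42 days of age in 3 droplet-based single-cell RNA libraries: milk with alfalfa hay, milk with concentrate starter, and milk only. Each diet had 1 library, and all lambs received milk. The labels do not say how many lambs entered a library. Per the labels' protocols, every tissue was minced and digested repeatedly in warm trypsin before loading, so all cells passed through warming and dissociation.

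The heat shock response is run by HSF1, a transcription factor that is held inactive by chaperones and released when unfolded proteins occupy them. HSP70 proteins such as HSPA6 and HSPA1A bind unfolded chains, HSP40 proteins (DNAJ genes) hand clients to them, and HSPH1 and BAG3 help them let go. The FOS, JUN, EGR1 and ATF3 genes belong to a separate, faster programme, the immediate early response, which many kinds of stress set off, tissue dissociation among them. The rumen lining is a stratified epithelium in which basal keratinocytes divide, move up through the spinous layer and cornify, while the lower and middle layers take up short-chain fatty acids.

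No diet had a replicate library, so no difference below has a replicate check and none was tested. Levels are UMIs summed over a group of cells, scaled to the total UMIs of that group (CPM, the number per 1000000 UMIs), with exact Poisson 95% intervals. Ratios carry exact conditional binomial intervals and shares exact Clopper-Pearson intervals, all for counting error alone. A gene that reached 10 CPM in either group counts as measured, and it was called higher or lower at 1.5-fold. Because HSPA6 chose the cells, its own level is a description. The same holds for every other gene of the hay split, whereas the concentrate and milk-only cells were not used in the choice.

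The libraries held 56861548 UMIs in 9543 barcodes with hay, 60220174 in 9214 with concentrate and 63057979 in 7032 with milk only. HSPA6 cells of the hay library had a median of 6060 UMIs and 1212 genes, against 5573 UMIs and 1065 genes in the cells with HSPA6 of 0. When every cell was thinned to 2263 UMIs, the medians were 622 genes in HSPA6 cells and 593 genes in the cells with HSPA6 of 0. Mitochondrially encoded genes took a median of 8.73% of UMIs in HSPA6 cells and 10.3% in the others. The hay library shared 28 barcodes with the concentrate library, of which 0 were hay HSPA6 cells, and 17 with the milk-only library, of which 1 was. Doublets were not removed.

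HSPA6 counts were low in most of these cells. Of the 420, 233 had 2 UMIs, 127 had 3 to 4, and 60 had 5 or more, with a highest count of 12. Another 453 cells had 1 UMI and lay just outside the limit. Together the members held 1270 of the 2533 HSPA6 UMIs in kept hay cells, a summed level of 459 CPM. By the same limits the summed level was 409 CPM in the concentrate library and 247 CPM in the milk-only library.

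The working name of these cells rests on 4 marker genes, of which HSPA6 is the choice itself, and the other genes bore the name out only in part. HSPA1A, the stress-inducible HSP70, stood at 76.3 CPM in HSPA6 cells and 13.6 CPM in cells with HSPA6 of 0. CDO1, which begins the breakdown of cysteine, stood at 203 CPM in HSPA6 cells and 128 CPM in the others, 1.59-fold higher (1.45 to 1.74). FBP2, the muscle-type fructose bisphosphatase, stood at 385 CPM in HSPA6 cells and 339 CPM in the others, a ratio of 1.13 (1.06 to 1.21), and so did not mark these cells. Keratinocyte genes were present but did not stand higher as a set. Of 8 measured keratinocyte markers, 0 were called higher and 2 lower, beside 12.5% and 3.96% of all measured genes. Their median log2 ratio was -0.065, beside 0.15 over all genes. KRT36 was 1 of the 2, at 24.6 CPM in HSPA6 cells and 92.3 CPM in the others. KRT15, the basal keratin of this epithelium, had a UMI after thinning in 99.3% of HSPA6 cells and 95.4% of the others, with 65.8% in the 38 barcodes that held the immune genes PTPRC or C1QA. TP63, the master regulator of basal keratinocytes, stood at 36.5 CPM in HSPA6 cells and 35.8 CPM in the others.

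Markers of other cell types were almost absent, with 1 exception. Barcodes with PTPRC or C1QA, which are on the immune lists, were left out of both groups. Low sums of immune genes were thus in part fixed by the choice of cells. The 14 T and NK cell genes with a symbol summed to 2.17 CPM in HSPA6 cells and 2.14 CPM in the others, with CD3D, CD3E and CD3G at 0 in HSPA6 cells. The 15 macrophage and dendritic cell genes summed to 2.17 CPM in HSPA6 cells and 1.25 CPM in the others, with C1QB, TYROBP and CSF1R at 0 in HSPA6 cells. A single member held 202 of the 215 UMIs of COL1A1, COL1A2, COL3A1 and DCN, genes of fibroblasts. The 10 fibroblast genes with a symbol summed to 84.6 CPM in HSPA6 cells and 2.68 CPM in the others. That cell put COL1A2 (22.4 CPM in HSPA6 cells, 0.0715 CPM in the others), COL3A1 (28.2 CPM in HSPA6 cells, 0.143 CPM in the others) and DCN (21.0 CPM in HSPA6 cells, 1.43 CPM in the others) at the head of the list of ratios. It held 98.4% of the COL1A2 UMIs of HSPA6 cells, 100% of those of COL3A1 and 79.3% of those of DCN.

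HSPA6 cells made up a like share of the hay and concentrate libraries and a smaller one of the milk-only library. They were 5.97% of kept cells with hay (5.43% to 6.55%), 6.48% with concentrate (5.81% to 7.21%) and 2.68% with milk only (2.19% to 3.24%). The ratio of the hay to the concentrate share was 0.922 (0.795 to 1.07), and that of the hay to the milk-only share was 2.23 (1.80 to 2.80). Kept cells also include dividing cells and immune barcodes, the latter 38 with hay, 94 with concentrate and 458 with milk only. Among cells that met the limits on division and immune genes, the shares were 7.51%, 8.71% and 3.70%. HSPA6 cells had medians of 6060 UMIs with hay, 7444 with concentrate and 12534 with milk only, and thinning all cells to 2263 UMIs widened the gap. The shares of kept cells were then 1.96% with hay (1.65% to 2.31%), 2.08% with concentrate (1.69% to 2.53%) and 0.396% with milk only (0.217% to 0.663%). For these, 180 concentrate and 313 milk-only cells under that depth were left out. The hay to milk-only ratio after thinning was 4.96 (2.86 to 9.31), on 14 milk-only cells. For cells with any HSPA6 UMI after thinning, it was 3.14 (2.47 to 4.02). Of the cells that met the limits on division and immune genes, 8.92% with hay and 3.18% with milk only had such a UMI. With 1 library per diet, diet, animal and preparation cannot be told apart.

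**Figure D1:**
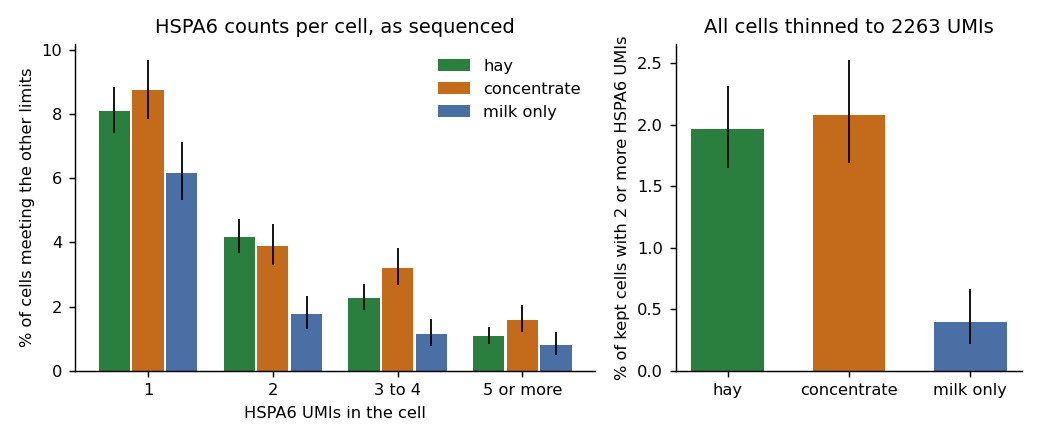
Share of cells by HSPA6 count in the hay, concentrate and milk-only libraries. Left, percent of cells meeting the other limits that had 1, 2, 3 to 4, or 5 or more HSPA6 UMIs; right, percent of kept cells with 2 or more after thinning to 2263 UMIs. Bars are single libraries and lines exact 95% counting intervals. The hay and concentrate bars lie close together on the right (1.96% and 2.08%), above milk only (0.396%).

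HSPA6 UMIs were not confined to these keratinocytes. Among all hay cells that met the limits on division and immune genes, 7.51% (6.83% to 8.23%) had 2 or more, at a median of 5624.5 UMIs. Of the 38 hay barcodes with PTPRC or C1QA, 9 had 2 or more, a share of 23.7% (11.4% to 40.2%) at a median of 3845 UMIs and of 18.4% after thinning. The keratinocyte share is therefore not above that of immune barcodes in the same library, and free RNA in the droplets cannot be set apart from expression by the share alone. In the concentrate library, 8.71% of the cells meeting the limits had 2 or more HSPA6 UMIs, against 21.3% of immune barcodes, and in the milk-only library 3.70% of cells did, against 1.75% of immune barcodes. Hay keratinocytes above the division limit, at a median of 7793 UMIs, had a share of 12.3% (10.6% to 14.1%), which was 3.15% after thinning to 2263 UMIs.

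Within the hay keratinocytes the share was far from even, at nearly equal depth. Cells were ranked by the share of their UMIs from FOS and JUN, which encode the AP-1 transcription factor. Below the median, where many cells tied at 0, 19 of 2797 cells or 0.679% (0.409% to 1.06%) were HSPA6 cells, at a median of 5579 UMIs. In the quartile above it, 3.22% were (2.36% to 4.28%), at a median of 5766 UMIs. In the top quartile, 25.4% were (23.2% to 27.8%), at a median of 5573 UMIs. After thinning, the same shares were 0.179%, 0.787% and 8.72%.

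The order over KRT15 was similar but flatter, with 2.07% HSPA6 cells in the lowest quartile and 12.9% in the top one. For FABP4, a fatty acid carrier, the order ran the other way, with 10.9% below the median and 1.86% in the top quartile. For FBP2 the share was 6.29% in the lowest quartile and 9.94% in the top one.

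Across the hay split, 4245 genes were measured. Of them, 532 genes, or 12.5%, were at least 1.5-fold higher in HSPA6 cells, and 168, or 3.96%, were at least 1.5-fold lower. The median over all measured genes was a log2 ratio of 0.15 rather than 0, so a list is read against that value. Counts of called genes on a list are likewise read against 12.5% higher and 3.96% lower. Scaling by the median of ratios, which moves that median to 0, gave 306 higher and 279 lower genes.

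The heat shock genes split into a small set that stood higher and a large set that stayed near the level of all genes. Of 70 genes on 6 lists of chaperones, cofactors and heat-induced genes, 53 had a symbol and 38 were measured. Their median log2 ratio was 0.25, beside 0.15 over all genes, and 8 were called higher and 0 lower. With median-of-ratios scaling the heat shock median was 0.099, beside 0 over all genes. That scaling shifts every log2 ratio by the same amount, so it cannot change the margin. The margin was lost with 2 other choices of cells. With 5 or more HSPA6 UMIs the median was 0.28 beside 0.28 over all genes. After thinning, the cells were split anew on thinned counts into 138 and 5095 cells, and the median was 0.16 beside 0.17. The 5095 included cells whose HSPA6 UMIs were lost in thinning. List medians and gene counts after thinning use this new split, whereas shares of cells with a UMI of a named gene keep the original groups.

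Among the HSP70 proteins and their cofactors, 3 of 9 measured genes were called higher, and the list median was 0.44. HSPA1A had the largest ratio, 5.61 (4.72 to 6.65), and carried a UMI in 154 of the 420 cells. After thinning, HSPA1A had a UMI in 17.9% of HSPA6 cells (14.3% to 21.9%) and in 3.11% of the others (2.64% to 3.65%), with 13.2% in the 38 immune barcodes (4.41% to 28.1%). HSPA6 and HSPA1A are close paralogues, and how the authors' counting divided reads between near-identical stretches is not known. HSPA2, an HSP70 best known from the testis, stood at 10.1 CPM in HSPA6 cells and 3.75 CPM in the others, 2.70-fold higher (1.71 to 4.13). BAG3, which ejects clients from HSP70 and leads them to autophagy, stood at 119 CPM in HSPA6 cells and 55.4 CPM in the others, 2.15-fold higher (1.90 to 2.42). After thinning, BAG3 had a UMI in 20.7% of HSPA6 cells and 10.97% of the others, but in 50% of immune barcodes.

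The remaining members of that list were below the threshold. HSPH1, the HSP110 exchange factor, stood at 170.0 CPM in HSPA6 cells and 115 CPM in the others, a ratio of 1.47 (1.34 to 1.62), and after thinning had a UMI in 30.5% of HSPA6 cells, 21.9% of the others and 60.5% of immune barcodes. HSPA8, the constitutive HSC70 that every cell uses, stood at 1969 CPM in HSPA6 cells and 1447 CPM in the others, a log2 ratio of 0.44. HSPA4L, an HSP110 relative, had a log2 ratio of -0.34.

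The co-chaperones and chaperonins were largely flat. DNAJB4, an HSP40 protein, was the 1 called gene of 5 on its list, at 42.7 CPM in HSPA6 cells and 17.1 CPM in the others (2.49-fold, 2.02 to 3.05), and the list median was -0.01. None of the 10 measured HSP90 genes and cofactors was called. HSP90AA1, the inducible HSP90, stood at 3977 CPM in HSPA6 cells and 3229 CPM in the others, and the list median was 0.24. None of the 9 chaperonin genes was called either, and their median was 0.14, beside 0.15 over all genes. With median-of-ratios scaling, which shifts all genes alike, that median was -0.01.

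The small heat shock proteins split. CRYAB, which holds unfolded proteins in solution, stood at 39.1 CPM in HSPA6 cells and 6.47 CPM in the others, 6.04-fold higher (4.72 to 7.71), and its 108 UMIs lay in 42 of the 420 cells. HSPB1, a small heat shock protein of keratinocytes, stood at 731 CPM in HSPA6 cells and 599 CPM in the others, and was not called. The 3 measured genes on the list of other heat-induced genes were all called. UBB, which encodes ubiquitin chains that stressed cells draw on, stood at 1669.8 CPM in HSPA6 cells and 811 CPM in the others (2.06-fold). SERPINH1, the collagen chaperone HSP47, was 1.86-fold higher, and IER5L, a relative of the HSF1 cofactor IER5, was 2.30-fold higher. After thinning, SERPINH1 had a UMI in 26.7% of HSPA6 cells and 5.26% of immune barcodes (0.644% to 17.7%). For CRYAB these shares were 5.48% and 0% (0% to 9.25%), and for UBB 95% and 100%.

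Of the heat shock factors, 2 genes had a symbol and 0 reached 10 CPM. Their summed level was 5.43 CPM in HSPA6 cells and 3.68 CPM in the others.

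**Figure D2:**
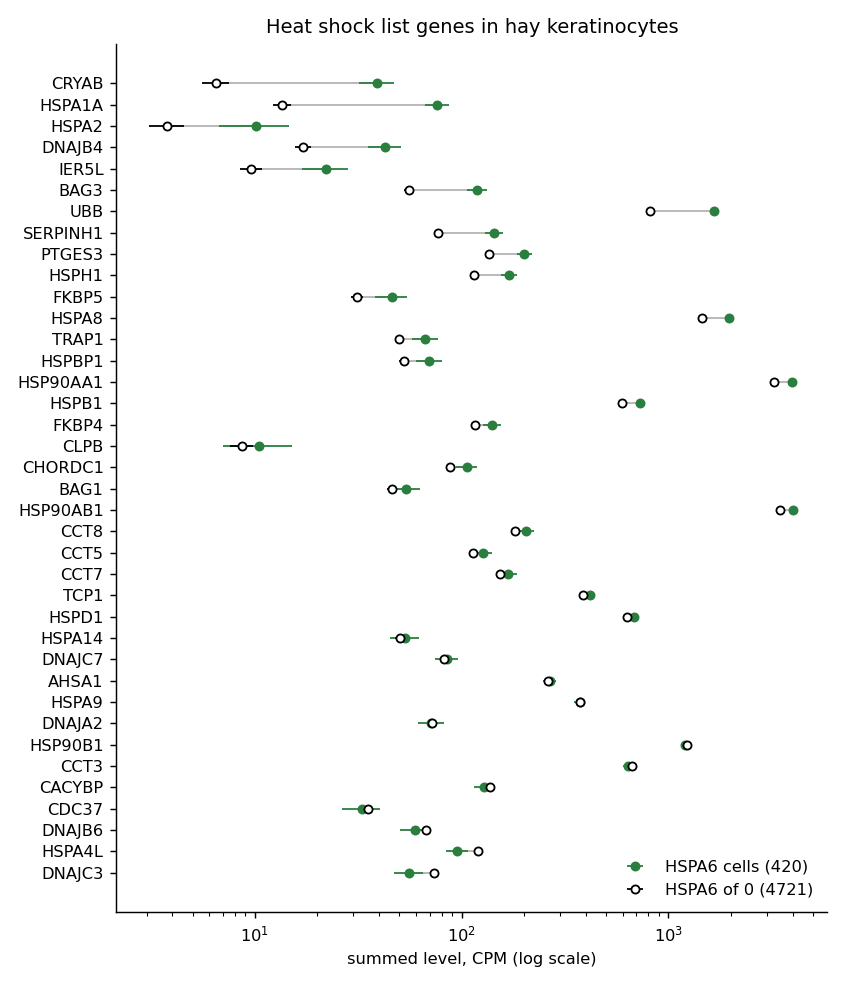
Summed level in CPM (log scale) of the 38 measured heat shock list genes in hay keratinocytes: filled points, 420 HSPA6 cells; open points, 4721 cells with HSPA6 of 0; lines, exact 95% counting intervals. The 8 called genes are at the top, led by CRYAB (39.1 CPM in HSPA6 cells, 6.47 CPM in the others) and HSPA1A (76.3 CPM in HSPA6 cells, 13.6 CPM in the others), while the chaperonin and HSP90 genes lie close to equal.

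The immediate early genes stood higher throughout. Of 25 genes on the list 15 were measured, all 15 were called higher, and their median log2 ratio was 1.80, beside 0.15 over all genes. FOS stood at 1217 CPM in HSPA6 cells and 266 CPM in the others (4.58-fold, 4.39 to 4.77), and JUN at 1663 CPM in HSPA6 cells and 357 CPM in the others (4.65-fold, 4.49 to 4.82). After thinning, JUN had a UMI in 89.3% of HSPA6 cells and 25.2% of the others, with 76.3% in immune barcodes, and FOS in 70% of HSPA6 cells and 18.2% of the others, with 68.4% in immune barcodes. For ATF3 the shares were 18.1% in HSPA6 cells and 3.81% in the others, with 50% in immune barcodes. The FOS share of HSPA6 cells was thus close to that of immune barcodes, and the ATF3 share below it. EGR1 went the other way, with a UMI in 16.2% of HSPA6 cells, 2.71% of the others and 0% of immune barcodes (0% to 9.25%). FOSB, a FOS relative, was 6.63-fold higher, EGR1, a growth-factor-induced zinc finger factor, 5.75-fold, KLF6, a Krüppel-like factor, 4.94-fold, and ATF3, a stress-induced repressor, 4.58-fold.

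Other stress lists were mixed. On the list of apoptosis and p53 targets, 5 of 6 measured genes were called higher, with a median of 1.24, among them GADD45B (136 CPM in HSPA6 cells, 36.5 CPM in the others), the p38 activator induced by NF-kB, and the survival gene MCL1 (278 CPM in HSPA6 cells, 119 CPM in the others). On the inflammatory list, the NF-kB feedback genes TNFAIP3 (5.70-fold) and NFKBIZ (3.52-fold) were higher, whereas the alarmins S100A8 and S100A9 were lower, 2.30-fold and 2.43-fold. In HSPA6 cells 1 cell held 41.2% of the S100A8 UMIs, and without it the log2 ratio was -1.97, against -1.20 with it.

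The unfolded protein response of the endoplasmic reticulum had 3 genes higher and 2 lower of 10, with a median of 0.00. DDIT3, the CHOP factor of that response, was 4.38-fold higher, and HSPA5, its HSP70 chaperone, 1.91-fold higher, while SDF2L1 and MANF, which respond with HSPA5 in many cells, had log2 ratios of -1.03 and -0.74. The 26 measured proteasome genes had a median of -0.03 with 0 higher and 1 lower. In the oxidative stress list, 1 of 13 was higher and 2 lower.

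Other genes with the largest ratios in HSPA6 cells included RGS2, a brake on G-protein signalling (24.6 CPM in HSPA6 cells, 4.36 CPM in the others), and FST, the activin antagonist follistatin (22.1 CPM in HSPA6 cells, 5.11 CPM in the others). ADM, the hypoxia-induced peptide adrenomedullin, stood at 18.8 CPM in HSPA6 cells and 3.43 CPM in the others, a log2 ratio of 2.46, and was 1 of 2 genes called among 5 hypoxia targets.

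Basal genes stood higher in HSPA6 cells. Of 10 measured basal genes, 5 were called higher and 0 lower, with a median of 0.55. KRT15 itself stood at 8442 CPM in HSPA6 cells and 6053 CPM in the others (1.39-fold). COL17A1, a hemidesmosome collagen that ties basal cells down, stood at 133 CPM in HSPA6 cells and 73.2 CPM in the others, and IGFBP2, an IGF-binding protein, at 384 CPM in HSPA6 cells and 247 CPM in the others.

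Of 14 S phase genes, 10 were called higher and 0 lower, with a median of 0.69, although the limit on dividing cells held for both groups. UHRF1, which carries DNA methylation through replication, stood at 76.7 CPM in HSPA6 cells and 35.9 CPM in the others, and GINS2, part of the replicative helicase, at 19.2 CPM in HSPA6 cells and 7.25 CPM in the others. Of 7 measured G2 and M phase genes, 2 were called higher. The limit itself used NUSAP1 on that list. Depth moved with this split (medians of 6060 UMIs in HSPA6 cells and 5573 in the others). The S phase median was 0.53 after thinning and 0.60 against cells matched on depth.

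Genes of differentiating and absorbing cells stood lower. On the spinous list, 3 of 6 were called lower and 0 higher, with a median of -0.73. The median was -1.69 after thinning and -1.38 with 5 or more HSPA6 UMIs. KRT36, a keratin on that list, stood at 24.6 CPM in HSPA6 cells and 92.3 CPM in the others, 3.75-fold lower. Its 68 UMIs lay in 24 HSPA6 cells, with 25% in 1 cell, and without that cell the log2 ratio was -2.32, against -1.91. The shares of cells with a KRT36 UMI after thinning were closer, at 3.33% of HSPA6 cells (1.83% to 5.53%) and 4.74% of the others. KRTDAP, a keratinocyte differentiation protein, stood at 15.9 CPM in HSPA6 cells and 50.2 CPM in the others, a log2 ratio of -1.66, which was -2.31 without the 1 cell that held 36.4% of its UMIs in HSPA6 cells. FABP4 stood at 229 CPM in HSPA6 cells and 796 CPM in the others, 3.47-fold lower, and 65.5% of HSPA6 cells had no FABP4 UMI, against 42.3% of the others.

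Also among the 15 lowest ratios were GSTA1, a glutathione transferase (12.7 CPM in HSPA6 cells, 45.8 CPM in the others), GJA1, the gap junction protein connexin 43 (37.3 CPM in HSPA6 cells, 121 CPM in the others), and RBP2, a retinol carrier (16.3 CPM in HSPA6 cells, 53.9 CPM in the others). The others were CES2, AHSG, ENTPD5, AKR1D1, EPHX2, GLRX and ENPP3, which with the 2 alarmins stood between 2.22-fold and 2.77-fold lower.

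Several metabolic lists had medians below 0, but their counts of lower genes were small, beside 3.96% lower over all measured genes. CA1, a carbonic anhydrase, which makes bicarbonate, stood at 11826.5 CPM in HSPA6 cells and 21377 CPM in the others, 1.81-fold lower. Nuclear genes of oxidative phosphorylation had a median of -0.30 with 1 of 40 called lower, butyrate oxidation and ketogenesis a median of -0.19 with 1 of 12 called lower, and cholesterol synthesis a median of -0.40 with 1 of 7 called lower. FBP1, the liver-type fructose bisphosphatase, was 1.62-fold lower (1.39 to 1.89), while CDO1 was the 1 higher gene among 6 of sulfur amino acid metabolism, of which 3 were lower.

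**Figure D3:**
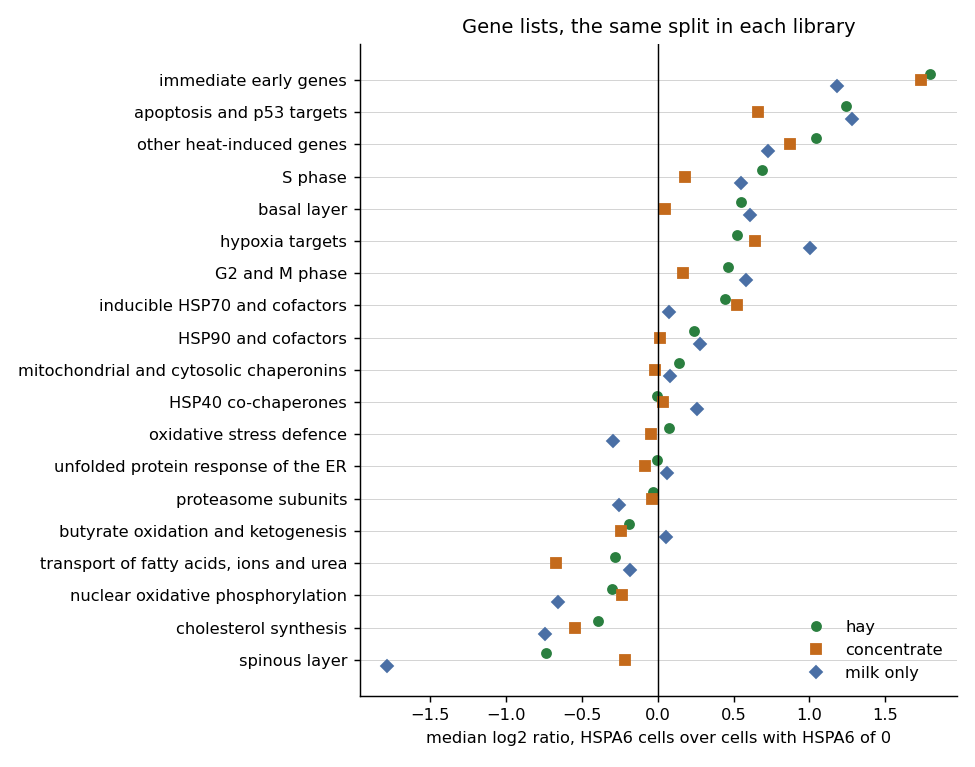
Median log2 ratio, HSPA6 cells over cells with HSPA6 of 0, for selected gene lists in the hay (circles), concentrate (squares) and milk-only (diamonds) libraries, 1 library each. Of the lists drawn, immediate early genes lie highest in hay (1.80) and spinous genes lowest (-0.73), while the HSP40, HSP90 and chaperonin lists lie between -0.02 and 0.28 in the 3 libraries.

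Cells just outside the HSPA6 limit stood nearer to those just inside it than to cells with a count of 0 in the genes given here. From cells with 0 to cells with 1, 2, 3 to 4, and 5 or more HSPA6 UMIs, HSPA1A stood at 13.6, 52.2, 65.7, 71.3 and 127 CPM. Over the same classes JUN stood at 357, 1488, 1508, 1858 and 1829.8 CPM, and FABP4 at 796, 377, 238, 255 and 144 CPM. For JUN and FABP4 most of the difference thus lay between a count of 0 and a count of 1. HSPH1 stood at 115, 143, 151, 192 and 194 CPM, and CRYAB at 6.47, 34.8, 39.2, 31.6 and 54.7 CPM. FBP2 stood at 339, 377, 389, 385 and 370.4 CPM, within 377 to 389 CPM in the classes of 1 to 4 UMIs.

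**Figure D4:**
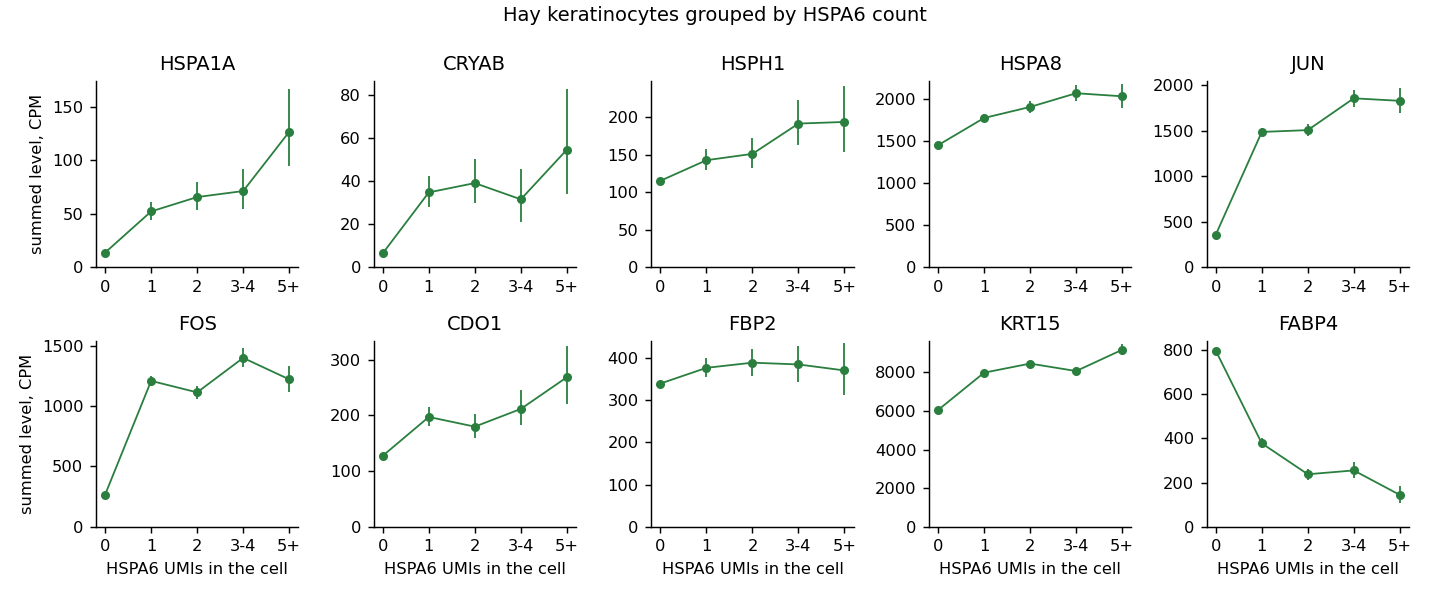
Summed level in CPM of 10 genes in hay keratinocytes grouped by HSPA6 UMIs per cell (0, 1, 2, 3 to 4, 5 or more), with exact 95% counting intervals. HSPA1A is highest in the class of 5 or more (127 CPM), JUN and FOS step up between 0 and 1, FABP4 steps down, and FBP2 is nearly level.

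Most HSPA6 cells were also high in FOS and JUN, so the split was repeated among the cells highest in those genes. Of the 420 HSPA6 cells, 356 or 84.8% lay in the top quartile of FOS and JUN share, against 730 or 15.5% of the cells with HSPA6 of 0. Within that quartile the summed FOS and JUN level was 3430 CPM in HSPA6 cells and 3604 CPM in the others. HSPA1A was then 84.1 CPM in HSPA6 cells and 46.2 CPM in the others, 1.82-fold higher (1.48 to 2.24).

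Other members of the heat shock set had smaller ratios among FOS- and JUN-high cells. CRYAB had a ratio of 1.29 (0.999 to 1.67), BAG3 of 1.27 (1.09 to 1.47) and DNAJB4 of 1.19 (0.928 to 1.52). CDO1 had a ratio of 0.960 (0.856 to 1.07), so neither CDO1 nor FBP2 (1.01, 0.925 to 1.09) differed there beyond counting error. In the lower 3 quartiles CDO1 had a ratio of 1.69 (1.36 to 2.07). HSPH1 in the top quartile had a ratio of 1.35 (1.19 to 1.54). The median over heat shock lists was 0.14 in the top quartile, beside 0.13 over all genes.

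Some differences remained among FOS- and JUN-high cells of the hay library. FABP4 stood at 205 CPM in HSPA6 cells and 317 CPM in the others, 1.54-fold lower, and GINS2 stood at 21.6 CPM in HSPA6 cells and 11.7 CPM in the others. They did not recur in the top quartile of the other libraries. FABP4 had ratios of 1.94 with concentrate (1.86 to 2.03) and 1.12 with milk only (1.01 to 1.24). GINS2 had 0.897 (0.488 to 1.59) and 0.502 (0.158 to 1.23). KRT36 in the hay top quartile, at 16.3 CPM in HSPA6 cells and 20.7 CPM in the others, had a ratio of 0.789 (0.521 to 1.17). When all cells with HSPA6 of 0 were instead reweighted to the FOS and JUN shares of the HSPA6 cells, the S phase median was 0.45, the basal median 0.19 and the spinous median -0.036, beside 0.12 over all genes. The immediate early median, which holds FOS and JUN, turned to -0.10. The 64 HSPA6 cells in the lower 3 quartiles had HSPA1A at 40.5 CPM, against 8.00 CPM in the 3991 others, but on 20 UMIs only.

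**Figure D5:**
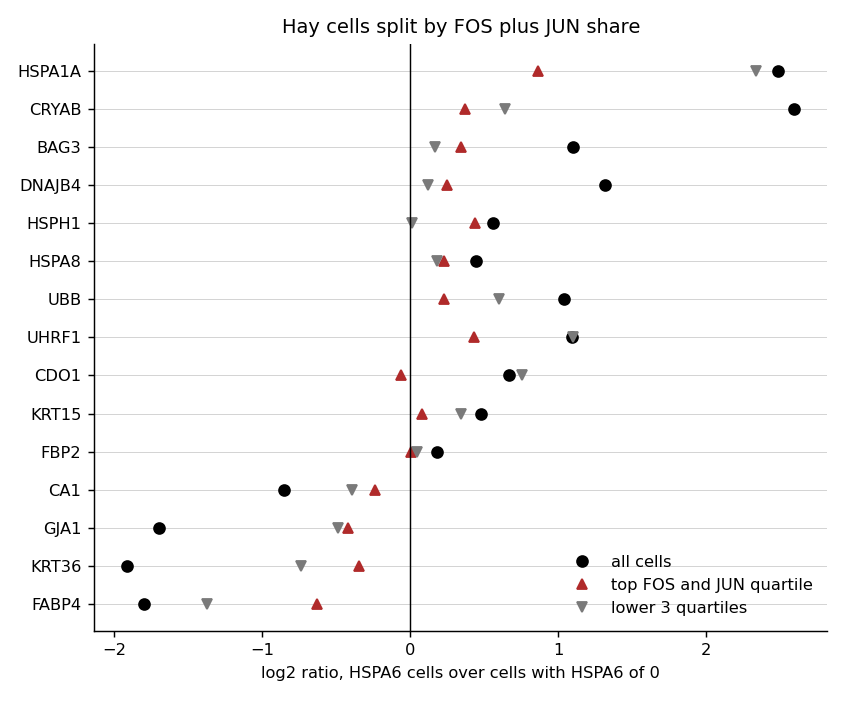
Log2 ratio, HSPA6 cells over cells with HSPA6 of 0, for 15 genes of the hay library in all cells (black circles), in the top quartile of FOS plus JUN share (red triangles, 356 HSPA6 cells) and in the lower 3 quartiles (grey inverted triangles, 64 HSPA6 cells). Within the top quartile most ratios lie nearer 0 than in all cells, and HSPA1A has the highest of them at 0.87, against 2.49 in all cells.

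The same split was made in the other libraries, on cells that the choice of members had not used. The concentrate library had 317 HSPA6 cells and 3005 cells with HSPA6 of 0, and the milk-only library 103 HSPA6 cells and 2509 with HSPA6 of 0. In the concentrate split 6.86% of 4491 genes were called higher and 4.88% lower, and in the milk-only split 20.2% of 4757 genes were called higher and 10.5% lower. The HSPA6 cells summed to 2764473 UMIs with hay, 2730305 with concentrate and 1500120 with milk only, so counting error is largest with milk only.

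Of the 532 genes higher in hay, 470 were measured in the concentrate library, where 166 or 35.3% were called higher and 5 lower. In the milk-only library 469 were measured, of which 239 or 51.0% were called higher and 10 lower. Of the 168 genes lower in hay, 51 of 163 (31.3%) were called lower and 8 higher with concentrate, and 97 of 152 (63.8%) were called lower and 4 higher with milk only.

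HSPA1A stood higher in HSPA6 cells of all 3 libraries. With concentrate it stood at 102 CPM in HSPA6 cells and 17.5 CPM in the others (5.83-fold), and with milk only at 39.3 CPM in HSPA6 cells and 12.2 CPM in the others (3.22-fold). CRYAB was 8.70-fold higher with concentrate (6.81 to 11.1) and 2.90-fold with milk only. Within the top quartile of FOS and JUN share, HSPA1A had a ratio of 1.67 with concentrate (1.37 to 2.03) and 1.28 with milk only (0.850 to 1.87). CRYAB had a ratio there of 1.57 with concentrate (1.18 to 2.08), but with milk only stood lower in HSPA6 cells, at 0.168 (0.0200 to 0.624) on 2 UMIs. BAG3 was 2.17-fold higher with concentrate (1.91 to 2.45) but had a ratio of 1.02 with milk only (0.808 to 1.26). HSPH1 had ratios of 1.57 with concentrate (1.36 to 1.81) and 1.16 with milk only (0.934 to 1.42).

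The heat shock lists as a whole had a median of 0.04 with concentrate, beside 0.04 over all genes there. Of 38 genes, 9 were called higher and 0 lower, where 6.86% of all genes were called higher. With milk only the median was 0.24, beside 0.16 over all genes, with 10 of 38 called higher and 0 lower. There 20.2% of all genes were called higher, so the milk-only count lies nearer to the share over all genes. FBP2 was again not called, with ratios of 1.05 with concentrate (0.956 to 1.15) and 1.32 with milk only (1.16 to 1.51). CDO1 had ratios of 1.32 with concentrate (1.18 to 1.47) and 1.73 with milk only (1.48 to 2.02). Within the top quartile of FOS and JUN share, FBP2 had ratios of 1.27 with concentrate (1.10 to 1.48) and 1.09 with milk only (0.902 to 1.30). CDO1 had 1.05 (0.889 to 1.23) and 1.24 (1.02 to 1.51) there.

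The immediate early genes recurred in both libraries, with 13 of 15 called higher with concentrate (median 1.73) and 18 of 19 with milk only (median 1.19). JUN stood at 1966 CPM in HSPA6 cells and 483 CPM in the others with concentrate, and at 4767 CPM in HSPA6 cells and 1683 CPM in the others with milk only. HSPA6 cells with milk only thus had more JUN than hay HSPA6 cells, as did the milk-only cells with HSPA6 of 0. The top quartile of FOS and JUN share held 67.5% of concentrate and 67.0% of milk-only HSPA6 cells.

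The basal and S phase lists stood nearer to all genes in the concentrate library. Their medians were 0.05 with 1 of 10 basal genes called higher, and 0.18 with 1 of 13 S phase genes called higher. With milk only they were 0.61 with 6 of 12 higher, and 0.55 with 6 of 13 higher. Over all genes, 6.86% were higher with concentrate and 20.2% with milk only. The summed KRT36 level was lower in HSPA6 cells of every library. It was 35.9 CPM in HSPA6 cells and 118 CPM in the others with concentrate, and 251 CPM and 1364 CPM with milk only. After thinning, KRT36 had a UMI in 2.22% of concentrate HSPA6 cells (0.898% to 4.52%) and 2.61% of the others. With milk only these shares were 14.7% and 28.9%. Other spinous genes varied between libraries. The list had 1 of 6 genes called lower with concentrate (median -0.21) and 5 of 6 with milk only (median -1.79). KRTDAP stood at 92.3 CPM in HSPA6 cells and 63.0 CPM in the others with concentrate, a ratio of 1.46 (1.28 to 1.67). By cells with a UMI after thinning, concentrate HSPA6 cells were not above the others, at 1.90% (0.702% to 4.10%) and 2.72%. With milk only KRTDAP stood at 89.3 CPM in HSPA6 cells and 457 CPM in the others. FABP4 was 3.47-fold lower in HSPA6 cells with hay, whereas its log2 ratio was -0.38 with concentrate, below the threshold, and -1.15 with milk only. Whether these ratios differ between libraries was not tested.

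HSPA6 cells of the hay library were last set against HSPA6 cells of the other libraries, with the cells of HSPA6 0 as the measure of what the libraries differ in at large. At 2-fold, 1.92% of 4526 genes were higher in hay than in concentrate HSPA6 cells and 4.95% lower. Against milk only, 3.63% of 4789 genes were higher and 14.5% lower. Of the heat shock genes, FKBP5, an HSP90 co-chaperone, stood at 45.9 CPM in hay and 10.99 CPM in concentrate HSPA6 cells (4.18-fold), and HSPH1 at 170.0 CPM in hay and 82.4 CPM in concentrate HSPA6 cells (2.06-fold). Among cells with HSPA6 of 0 they were 2.47-fold and 2.19-fold higher in hay. HSPA1A and BAG3 differed by less than 2-fold between hay and concentrate HSPA6 cells. HSPA1A stood at 76.3 CPM in hay and 102 CPM in concentrate, and BAG3 at 119 CPM and 113 CPM. Against milk-only HSPA6 cells, HSPH1 was 2.66-fold higher in hay, BAG3 2.08-fold (1.63 to 2.66) and HSPA1A 1.94-fold (1.45 to 2.64). Among cells with HSPA6 of 0 those ratios were 2.09, 0.981 and 1.11. HSPB11, HSPA13 and IER5L were instead lower in hay than in milk-only HSPA6 cells, by 3.95-fold, 3.22-fold and 2.69-fold. Among cells with HSPA6 of 0 they were 5.26-fold, 2.84-fold and 3.15-fold lower.

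Among genes of at least 50 CPM in hay or concentrate HSPA6 cells, the highest ratios in hay were those of the immunoproteasome subunits PSMB9 (110.0 CPM in hay, 20.9 CPM in concentrate) and PSMB8 (120.1 CPM in hay, 30.4 CPM in concentrate), followed by IDI1, AOX1, PLIN2 and ATP6V1B1 at 2.57-fold to 3.72-fold. LGALS1, galectin-1, was lowest, at 2.17 CPM in hay and 250.2 CPM in concentrate HSPA6 cells. FABP4 followed, at 229 CPM in hay and 4348 CPM in concentrate HSPA6 cells, then the thioesterase THEM5 (11.6-fold lower), GSTA1, IGFBP5 and KRTDAP.

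Many of these differences were found in cells with HSPA6 of 0 as well. In them PSMB9 was 6.13-fold higher in hay than in concentrate, PSMB8 5.12-fold, IDI1 3.81-fold and AOX1 2.47-fold. LGALS1 was 172-fold lower there, THEM5 11.7-fold, GSTA1 5.52-fold and IGFBP5 5.45-fold. Other genes differed in size. FABP4 was 19.0-fold lower in hay among HSPA6 cells and 7.10-fold lower among cells with HSPA6 of 0. PLIN2 and ATP6V1B1, 2.70-fold and 2.57-fold higher among HSPA6 cells, were 1.78-fold and 1.34-fold higher among cells with HSPA6 of 0. KRTDAP was 5.80-fold lower in hay than in concentrate HSPA6 cells but 1.26-fold lower among cells with HSPA6 of 0. After thinning, KRTDAP had a UMI in only 0.952% of hay and 1.90% of concentrate HSPA6 cells, so its levels there rest on few cells.

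Against milk only, FBP1 had, at the same minimum, the highest ratio in hay HSPA6 cells (65.8 CPM in hay, 16.0 CPM in milk only), followed by LY96, the lipopolysaccharide co-receptor MD-2, RNASEH2C, MACC1, UHRF1 and ALDH1A1 at 2.95-fold to 3.74-fold. FMO2 and PDE4B each had 1 UMI in hay HSPA6 cells and 151 and 95 UMIs in milk-only ones. MMP13, a collagenase, had 0 UMIs in hay and 82 in milk only, a ratio of 0 with an upper limit of 0.0250. RCAN1, a calcineurin inhibitor induced by calcium signals, stood at 4.34 CPM in hay and 328 CPM in milk-only HSPA6 cells, and ITPKC, an inositol phosphate kinase, at 7.23 CPM in hay and 253 CPM in milk-only HSPA6 cells. CD274, which encodes the checkpoint ligand PD-L1, had 0.723 CPM in hay, on 2 UMIs, and 52.0 CPM in milk-only HSPA6 cells.

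For RCAN1, CD274 and ITPKC the size differed between the kinds of cell. They were 75.6-fold, 71.9-fold and 35.0-fold lower in hay than in milk only among HSPA6 cells, and 14.8-fold, 13.6-fold and 15.1-fold lower among cells with HSPA6 of 0. These differences of size were not tested. FBP1 and LY96 had similar ratios in both kinds of cell, 3.58-fold and 3.05-fold higher in hay among cells with HSPA6 of 0. FMO2, PDE4B and MMP13 were likewise far lower in hay than in milk-only cells with HSPA6 of 0. They were 206-fold, 183-fold and 103-fold lower there, at 0.322, 0.0715 and 0.107 CPM in hay.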

How the data were processed

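Each diet had 1 matrix, deposited by the authors, of raw counts (UMIs) for every gene and cell barcode. The submitters' processing notes name Cell Ranger 3.1 and the file headers version 5.0.0, and which applies is not settled here. Genome build and annotation: not given in the sources used here. Neither coordinates nor sequences are shown. Groups came from the sample titles.

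Raw counts were summed over cells with Python 3.11.15 (pandas 2.3.3, numpy 2.4.6, with intervals from scipy 1.17.1), and scaled to CPM of the summed total. Cells do not serve as replicates, so no p-value is given. The calling and intervals were tested on simulated Poisson sums. These had no spread between cells, so the test could not cover genes whose UMIs lie in few cells. Levels near 10 CPM rest on few UMIs in HSPA6 cells. The unit is the deposited count throughout, and no count model was used.

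The members, gene lists and rules were chosen with earlier results of these data known. Named genes are the 15 highest and 15 lowest ratios among genes with a unique symbol, at least 20 CPM, at least 1.5-fold and an interval excluding 1, without ribosomal and mitochondrially encoded genes and HSPA6. To these are added up to 4 genes per list, the label's 4 markers, and, between libraries, the 6 highest and 6 lowest at 50 CPM and 2-fold. HSPA8, HSPA4L, HSP90AA1, HSPB1 and a few marker genes are named as list members after their values were seen. The split by FOS and JUN share was also added after seeing the data. Alternatives changed the cell limits, the HSPA6 minimum, depth, scaling, summary and the minimum level. Some symbols of the lists are not analysed here, and 1 gene of the heat shock lists is not reported here and was left out of their counts and medians.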

Additional observations from a re-analysis of the deposited data

Results flagged for a closer look

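Of the genes named by the fixed rule and called in the hay split, 4 went the opposite way past the threshold in another library, and none of these differences was tested. GSTM3, a glutathione transferase, had a log2 ratio of 0.66 in hay and -1.85 with milk only. A2ML1, a protease inhibitor of the upper epidermis, had -0.996 in hay and 0.83 with concentrate. In hay 1 cell held 46.3% of its UMIs in HSPA6 cells, and without that cell the log2 ratio was -1.89. COL1A2 had 8.29 in hay and -0.95 with concentrate, and COL3A1 had 7.63 in hay and -0.82 with concentrate. Of the COL1A2 and COL3A1 UMIs in hay HSPA6 cells, 98.4% and 100% lay in 1 cell. With concentrate, cells of 10 or more UMIs of COL1A1, COL1A2, COL3A1 and DCN held most of them on both sides. There 50 cells with HSPA6 of 0 held 8026 of 8467 such UMIs, and 4 HSPA6 cells held 464 of 619.

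2 signals stood outside the cells described. Hay barcodes with PTPRC or C1QA had 2 or more HSPA6 UMIs in 23.7% of cases, and hay keratinocytes above the division limit in 12.3%.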

How the results depend on the processing

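No paired analysis was possible because each diet had 1 library and the split was made within a library. Asking for 3 or more HSPA6 UMIs gave 2.66% of hay cells, a hay to concentrate ratio of 0.743 and 886 higher genes. Asking for 5 or more gave 0.853%, ratios of 0.720 to concentrate and 1.49 to milk only, and 1394 higher and 380 lower genes. The share of hay cells was 7.0% with at least 1000 genes, 8.22% with under 10% mitochondrial UMIs (where the ratio to milk only was 2.82), 4.82% with no division UMIs and 1.96% after thinning (ratio to milk only 4.96). Thinning, with the split made anew on thinned counts, gave 1217 higher and 573 lower genes on 138 cells against 5095. Counting genes from 1 CPM gave 1918 higher and 855 lower, from 50 CPM 118 and 68, and median-of-ratios scaling 306 and 279. The depth-matched and scaling alternatives give no share.

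Alternatives added after seeing the data left out collagen-rich cells or reweighted the cells with HSPA6 of 0. Matched on FOS and JUN share, 265 genes were higher and 33 lower, and HSPA1A had a log2 ratio of 0.88, against 2.49 without matching. There the immediate early median was -0.10, and the log2 ratios were -0.10 for JUN, -0.20 for FOS, -0.35 for ATF3, -0.32 for GADD45B, -0.28 for GADD45A, 0.083 for SPINK5 and 0.20 for A2ML1. Matched on FABP4 share, 109 genes were lower, and FABP4 itself had 0.20, as the matching fixes. The heat shock median lay between 0.099 and 0.28 in hay, 0.082 and 0.29 with milk only, and -0.048 and 0.22 with concentrate. Its margin over all genes in hay was lost with 5 or more HSPA6 UMIs (0.28 beside 0.28), thinning (0.16 beside 0.17) and FOS and JUN matching (0.12 beside 0.12). The spinous median was -1.08 with under 10% mitochondrial UMIs and with 3 or more HSPA6 UMIs, and -1.05 by the mean of per-cell CPM. Of 1139 values of the 75 called named genes under all alternatives, 1031 stayed past 1.5-fold the same way and 8 had the opposite sign.

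Depth limits low genes: in hay HSPA6 cells a count of 0 was set to a floor of 3 UMIs for log2 ratios, which is 1.09 CPM. With 1 library per diet, animal, preparation and diet cannot be told apart.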
